A study of Hordeum vulgare with 2 samples.

Results

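Protease inhibitors, an amylase inhibitor and the thaumatin-like protein Barperm1 were followed through their cysteine peptides in protein extract of germinated barley embryos, to see which of them lost label after thioredoxin (Trx). Peptides were taken by words in the deposited protein names, for Bowman-Birk, trypsin, amylase and subtilisin inhibitors, BDAI, serpins, Barperm and thaumatin. This gave 8 of the 199 peptides of the blocked run, from 4 of 163 protein entries, and 1 of the 93 peptides of the control run, from 1 of 73 entries. The control peptide is also among the 8. The Bowman-Birk name took in 4 peptides, Barperm 3 and BDAI 1. Subtilisin inhibitor, serpin, the compound name amylase/trypsin and the word thaumatin had 0 matches in either run. The set therefore holds 1 amylase inhibitor, and Barperm1 is called thaumatin-like here from general knowledge and not from its deposited name.

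Embryos came from seeds of the malting cultivar Barke, germinated for 48 h. Free thiols were alkylated with iodoacetamide (IAM) while the protein was extracted, and the extract was then held for 1 h with Trx or without it. In the blocked run, more IAM (10 mM) followed, which closes the cysteines that Trx had freed, whereas the control run received none at that step. In both runs the remaining cysteines were reduced and given an isotope-coded affinity tag (ICAT), light in the arm with Trx and heavy in the arm without, before the arms were combined. With the block, a cysteine freed by Trx takes up less light tag, so its heavy/light ratio exceeds 1. A label of the control run reads as if no Trx had been given, while its fuller description has arms with and without Trx. The fuller description was followed. The labels do not say how many embryos or extracts were pooled.

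Each run is 1 sample. Values below are the authors' average ratio ± the authors' SD within the run, no p-value was computed, and a difference between the runs concerns this pair of samples alone. How many ratios entered each average is unknown, and an SD listed as 0 is read as unknown. The reference limits are the mean ± 2 SD of the log2 ratio over the 93 control peptides, 0.822 to 1.24 as a ratio. Of these control peptides 90 have 1 cysteine and only 3 have 2 or 3, the highest of the 3 at 1.42. The limits thus hardly represent peptides with more than 1 cysteine.

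Bowman-Birk inhibitors are small seed proteins that bind trypsin-like proteases through loops held in place by many disulfide bonds. In cereals they are abundant in the embryo and outer layers of the grain. BDAI-1 belongs to the cereal family of trypsin and alpha-amylase inhibitors, is a protein of the starchy endosperm and is compact because of its disulfides. Thaumatin-like proteins are pathogenesis-related proteins, several of them antifungal, with a fold cross-linked by disulfides throughout. Thioredoxin is a small protein with a reactive cysteine pair that reduces disulfides in other proteins, and seed storage and inhibitor proteins are among its well-known substrates in germinating cereals.

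The peptides on which the account turns are shown as deposited, because the number and spacing of their cysteines (C) bear on how each ratio can be read.
Bowman-Birk inhibitor TC140585, 3 cysteines: CLDEVEECGPACK
Bowman-Birk inhibitor IBB_HORVU, 1 cysteine: TCLPSR
BDAI-1 (IAA2_HORVU), 1 cysteine: CGDLGSMLR
Barperm1 (gi|2454602), 2 cysteines: FGGDTYCCR
Barperm1, 1 cysteine: GQFEHNCPPTNYSK

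TC140585 gave another pair of peptides, of 17 residues with 2 cysteines and of 15 residues with 1 cysteine, and Barperm1 gave another of 16 residues with 1 cysteine. These longer peptides are named here by their length. In the TC140585 peptide with 3 cysteines, 6 residues lie between the first and the second cysteine and 3 between the second and the third. In the 17-residue peptide 11 residues lie between its cysteines. In the 9-residue Barperm1 peptide the cysteines are adjacent, with 0 residues between them. The 8 peptides hold 12 of the 213 cysteines in the blocked run. They include 3 of the 13 peptides with more than 1 cysteine and the 1 peptide with 3.

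The Bowman-Birk inhibitors are the protease inhibitors of the set, and 3 of their 4 peptides lay above the upper control limit (exact 95% interval 19.4% to 99.4%). Of all 199 peptides 50.8% did, so this count is not set apart from the run. The interval treats the 4 peptides as independent, although TC140585 gave 3 of them. The peptide of TC140585 with 3 cysteines had a ratio of 2.01 ± 0.39 in the blocked run, the fourth highest of 199. Its 17-residue peptide had 1.67 ± 0.09 (rank 32) and its 15-residue peptide 1.13 ± 0.02 (rank 126). The 15-residue value lay inside the control limits with its whole SD range, 1.11 to 1.15. The other 2 ranges, 1.62 to 2.40 for the peptide with 3 cysteines and 1.58 to 1.76 for the 17-residue peptide, lay above the limit throughout. None of these 3 peptides has a value in the control run.

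Peptides of the same Bowman-Birk entry thus differed in ratio within 1 run. The peptide with 3 cysteines was 1.78-fold higher than the 15-residue peptide (0.83 on the log2 scale, with an SD of 0.28 carried over from the authors' SDs). The 17-residue peptide was 1.47-fold higher than the 15-residue peptide (log2 0.56, SD 0.08). SD ranges were apart for both pairs. Between the peptides with 3 and 2 cysteines the difference was 1.21-fold (log2 0.27, SD 0.29), and their ranges overlapped, so their order is not settled.

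The 2 longer peptides of TC140585 resemble each other. With no gap, 12 of 14 aligned residues are identical, and 1 cysteine stands at the same place in both. The 17-residue peptide carries a second cysteine within itself, whereas the 15-residue peptide ends just before a cysteine, by its deposited flanking residue. Both peptides were identified in the heavy form. The ratios of this similar pair, 1.67 ± 0.09 and 1.13 ± 0.02, lie on opposite sides of the limit. Both are deposited under 1 entry, and the files do not say where in the protein each one lies.

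IBB_HORVU, deposited under the same Bowman-Birk name from another database, gave 1 peptide with 1 cysteine at 1.503, rank 65 of 199. Its SD is listed as 0, so its error is unknown. It shares no peptide with TC140585, and whether both entries stand for the same protein is not given in the files.

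BDAI-1, an inhibitor of the alpha-amylases of insects and other animals, gave 1 peptide with 1 cysteine. It had 1.65 ± 0.19 in the blocked run, rank 36, and its SD range, 1.455 to 1.835, lay above the limit throughout. Its methionine was deposited as oxidised, and it was not among the control peptides. With 1 cysteine, it was the highest single-cysteine peptide of the set.

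**Figure D1:**
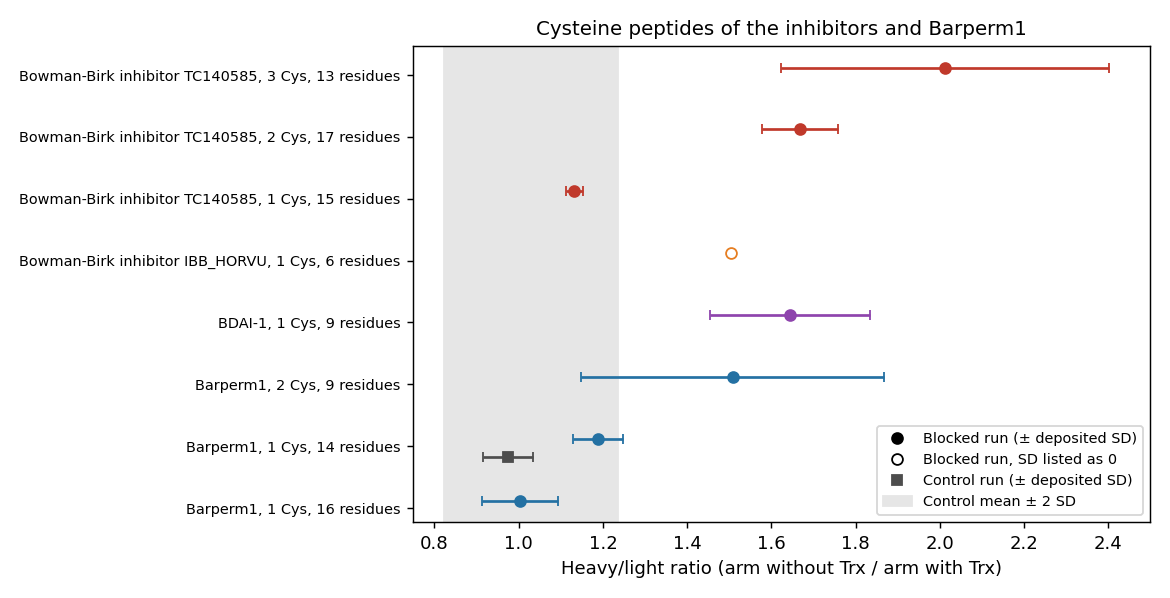
Heavy/light ratio of each cysteine peptide of the inhibitors and Barperm1 with the block (circles) and, for the 1 peptide measured there, without it (square). Bars are the authors' SD, the open circle has an SD listed as 0, and the grey band spans the control limits of 0.822 to 1.24: 5 of 8 circles lie right of the band.

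Barperm1 is the only one of the 4 entries with a control value. Its 9-residue peptide with adjacent cysteines had 1.51 ± 0.36 in the blocked run, its 14-residue peptide 1.19 ± 0.06 and its 16-residue peptide 1.00 ± 0.09. Only the first average lay above the limit, and its SD range of 1.15 to 1.87 reached back inside the limits. The 16-residue peptide, rank 176 of 199, did not differ from a ratio of 1 by more than its SD.

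Among the Barperm1 peptides, the 9-residue peptide was 1.503-fold higher than the 16-residue one (log2 0.59, SD 0.37) with ranges apart. It was 1.27-fold higher than the 14-residue one (log2 0.34, SD 0.35) with ranges overlapping. The 14-residue peptide was 1.18-fold higher than the 16-residue one (log2 0.24, SD 0.15), with ranges just apart, 1.13 to 1.25 and 0.913 to 1.09. These last 2 peptides each hold 1 cysteine, so the number of cysteines does not separate them.

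The 14-residue Barperm1 peptide permits the 1 comparison of a member with and without the block. It stood at 1.19 ± 0.06 in the blocked run, against 0.975 ± 0.06 in the control run, a difference of 1.22-fold (0.29 on the log2 scale, SD 0.11). The SD ranges, 1.13 to 1.25 and 0.915 to 1.035, were apart. This peptide therefore counted as within the limits in the blocked run although it was higher than its own control value by more than either SD. The difference was nonetheless ordinary for these runs. The 82 peptides in both runs had a median difference of 1.24-fold, with quartiles of 1.11-fold and 1.47-fold, and Barperm1 ranked 45. Ranges were apart, and higher with the block, for 62.3% of the 69 shared peptides for which neither SD was listed as 0.

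**Figure D2:**
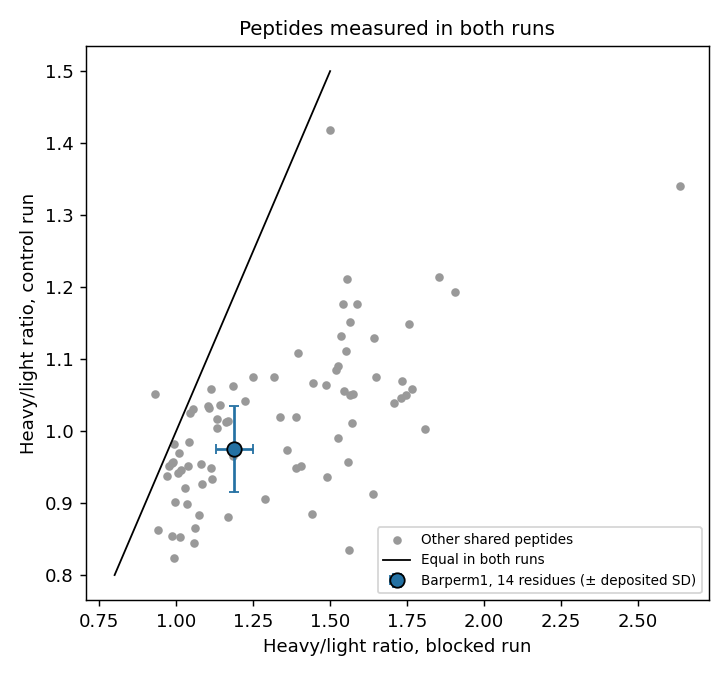
Heavy/light ratio in the blocked run (x axis) and the control run (y axis) for the 82 peptides measured in both, with the line of equal ratios. The 14-residue Barperm1 peptide, with the authors' SD as bars, lies right of the line at 1.19 and 0.975, within the cloud of the other shared peptides.

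Over the whole set, 5 of 8 peptides lay above the limit in the blocked run (62.5%, exact Clopper-Pearson 95% interval 24.5% to 91.5%), 3 within and 0 below. In that run 50.8% of all peptides lay above (101 of 199), so the set's share is not set apart from its run. The interval treats peptides as independent and covers counting only, while 6 of the 8 share a protein entry with another. The control run had 2.15% of its 93 peptides above, and the 1 Barperm1 peptide there was not one of them. The limits were set from these same 93 peptides, so a small share there is built in. The median ratio was 1.51 for the set and 1.25 for all peptides of the blocked run. Of the 7 set peptides with an SD above 0, 3 had their whole SD range above the limit, against 41.3% of the 172 such peptides in the run.

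Peptides with more than 1 cysteine lay above the limit more often, both in the set and in the run. The 3 set peptides with 2 or 3 cysteines had 1.51 to 2.01 and all lay above the limit, whereas the 5 with 1 cysteine had 1.00 to 1.65 and 2 lay above. The 10 other peptides with more than 1 cysteine had 1.03 to 2.46 with 7 above the limit. Taken over the run, 76.9% of peptides with 2 or 3 cysteines (exact 95% interval 46.2% to 95.0%) and 48.9% of peptides with 1 (41.5% to 56.3%) lay above, and these intervals overlap. Both intervals treat peptides as independent. Without the block, the 3 control peptides with 2 or 3 cysteines also had the higher median, 1.13 with 1 above the limit, against 1.01 with 1 above among the 90 with 1 cysteine. For the set's 5 peptides with 1 cysteine the median was 1.19, and for all 186 such peptides it was 1.23.

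**Figure D3:**
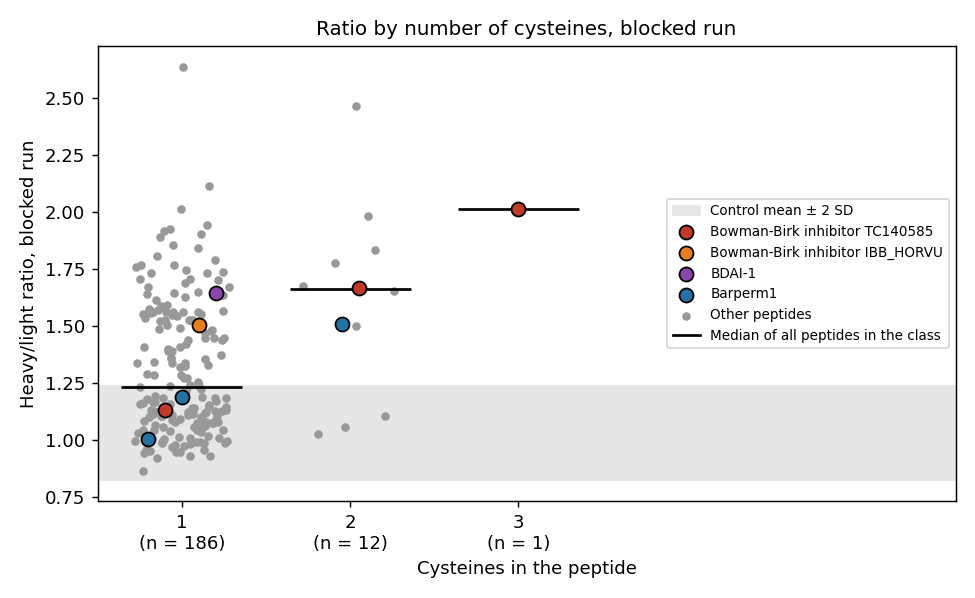
Heavy/light ratio in the blocked run (y axis) by number of cysteines in the peptide (x axis), with the set in colour, other peptides in grey (spread sideways for legibility), medians as lines and control limits as a band. The class medians are 1.23 for 1 cysteine and 2.01 for the only peptide with 3, and the 3 coloured peptides with more than 1 cysteine lie above the band.

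A peptide with several cysteines loses its fully tagged light form if any 1 of them is closed by IAM. Expressed as apparent loss of light label, 100 × (1 − light/heavy), the TC140585 peptides had 50.3% with 3 cysteines, 40.01% with 2 and 11.7% with 1. BDAI-1 had 39.2% and IBB_HORVU 33.5%. The Barperm1 peptides had 33.7% for 2 cysteines, 15.8% for the 14-residue peptide and 0.299% for the 16-residue peptide. Of the set only the TC140585 peptide with 3 cysteines exceeded 50%, and it is among the 5 of 199 peptides in the run that did.

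If every cysteine of a peptide were closed independently and to the same extent, the loss per cysteine would be 20.8% for the TC140585 peptide with 3 cysteines, 22.5% for the 17-residue peptide and 18.6% for the 9-residue Barperm1 peptide. That assumption was not tested and need not hold for disulfide partners. On this scale BDAI-1 leads the set at 39.2% (rank 28 of 199), followed by IBB_HORVU at 33.5% (rank 57), while the peptide with 3 cysteines has rank 96. The order of the set thus depends on whether a loss is counted per peptide or per cysteine. The 15-residue peptide of TC140585 stays lower at 11.7%.

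In both runs every cysteine of the 292 deposited peptides carried a tag of 1 form, heavy in 167 peptides and light in 125, by the difference between the calculated mass and the mass of the bare sequence. No deposited peptide, in the set or elsewhere, mixes a tagged with an IAM-blocked cysteine. The calculated mass restates the modifications that the search assigned, so it cannot show whether such mixed forms were present. Partly blocked forms of the peptides with several cysteines were not analysed here.

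The precision of the leading values was uneven. The SD of 0.39 of the TC140585 peptide with 3 cysteines was the largest of the 199, and that of 0.36 of the 9-residue Barperm1 peptide ranked 3. As shares of the ratio they were 19.4% and 23.9%, against a run median of 8.10% over peptides with an SD above 0. The 15-residue TC140585 peptide had the smallest SD above 0 in the set, 0.02, or 1.77% of its ratio.

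Identification scores also differed. The Mascot score of the peptide with 3 cysteines was 22, rank 10 of 199 from the lowest, where the authors' minimum was 20 and the run median 41. Its calibrated mass error of 14.5 ppm ranked 20 by size, against a run median of 4.49 ppm. The 15-residue peptide of the same entry scored 102, the highest but 1 in the run, and the 17-residue peptide 32. BDAI-1 scored 37, IBB_HORVU 27, and the Barperm1 peptides 54, 45 and 26 from the highest to the lowest ratio. With scores of at least 40, 1 of 3 set peptides lay above the limit, against 55 of 106 (51.9%) over the run. The part of score and mass error in the ratios was not tested.

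**Figure D4:**
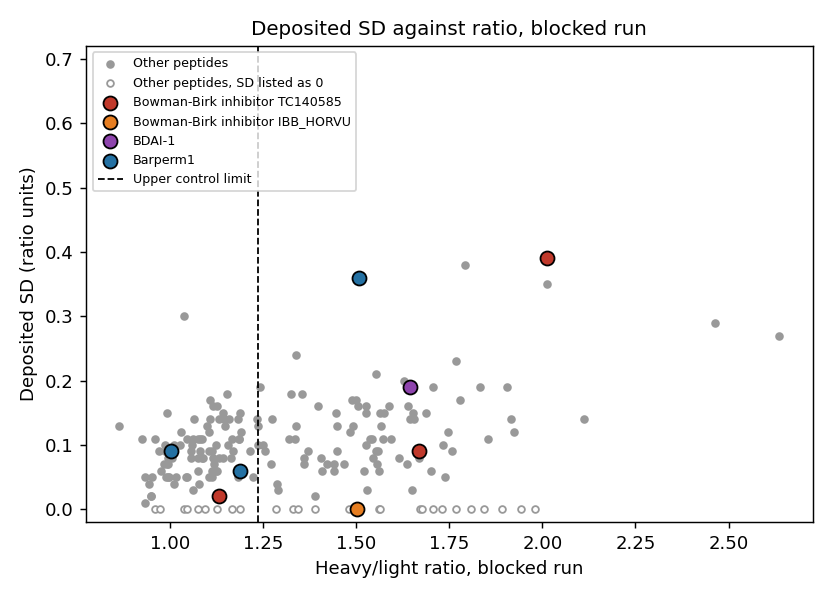
The authors' SD (y axis, in ratio units) against the heavy/light ratio (x axis) in the blocked run, with the set in colour, open grey circles for other peptides with an SD listed as 0 and the upper control limit dashed. The TC140585 peptide with 3 cysteines (SD 0.39) and the 9-residue Barperm1 peptide (SD 0.36) lie at the top of the SD range.

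Spread between peptides of 1 entry was wide for both entries of the set that had several peptides. The span between highest and lowest peptide was 0.83 on the log2 scale for TC140585 and 0.59 for Barperm1, ranking 3 and 5 among the 27 entries with 2 or more peptides, where the median span was 0.21. Both had peptides on both sides of the limit, as did 29.6% of those entries. In both, the highest peptide held more cysteines than the lowest. Barperm1 had a span of 0.34 with its 2 peptides scoring at least 40 and of 0.24 with its 2 peptides of 1 cysteine, so the width rests on which peptides enter. An entry with more peptides can also span more by number alone, and these 2 had 3 peptides each.

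Other proteins near the set were taken from lists of names. Other small or disulfide-rich seed proteins (lipid transfer proteins, hordein, avenin-like protein and a chitinase) gave 11 peptides from 7 entries. Of these peptides 9 lay above the limit (exact 95% interval 48.2% to 97.7%), against 50.8% over the run. The interval treats them as independent. Their median was 1.505 against the run's 1.25. The highest was the 8-residue peptide of lipid transfer protein 1, with 2 cysteines, at 1.98 (SD listed as 0). The lowest was a single-cysteine peptide of another lipid transfer protein at 0.994 ± 0.08. Several of the 11 have 2 cysteines, and over the run 76.9% of peptides with 2 or 3 cysteines lay above. In the control run 1 of 3 peptides of this list lay above, the 17-residue peptide of lipid transfer protein 1 at 1.42 ± 0.11. The same peptide is among the 9 in the blocked run, at 1.498 ± 0.17, so it lay above the limit also without the block.

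Amylases and peptidases, taken by name alone, were few. Beta-amylase, which splits maltose from starch and is not an alpha-amylase, had 1.65 ± 0.03 and 1.11 ± 0.05 for its 2 peptides in the blocked run. The first of these had 1.075 ± 0.02 in the control run. Alpha-amylase, the enzyme family BDAI-1 is named for, was not among the named peptides. The peptidases were a ubiquitin-specific protease at 1.54 ± 0.11 (control 1.13 ± 0.11) and an aspartyl aminopeptidase at 0.994 ± 0.07 (control 0.982 ± 0.06), neither of them a trypsin-like protease.

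The 5 peptides of other entries nearest in ratio to the leading Bowman-Birk peptide were a zinc-binding oxidoreductase (2.01 ± 0.35), lipid transfer protein 1 (1.98), adenosylhomocysteinase (1.94), a hypothetical protein (1.92 ± 0.12) and alcohol dehydrogenase 1 (2.11 ± 0.14). Of these only the lipid transfer peptide has more than 1 cysteine, and it also had a low score, 28. The measure of likeness is the distance in log2 ratio within the blocked run alone.

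The extract is labelled embryo. Names taken for embryo proteins, among them globulin, peroxiredoxin and late embryogenesis, gave 8 peptides of 4 entries in the blocked run. In the control run they gave 7 of 3 entries. Whether each protein so named is particular to the embryo was not tested. Starchy endosperm proteins gave 4 peptides of 3 entries in the blocked run (B1 hordein, beta-amylase and BDAI-1 itself) and 1 peptide in the control run. The aleurone names searched had 0 peptides in either. BDAI is itself a word of the endosperm list, so its place there was set beforehand and is not a result. The list's names CMd, protein Z and serpin matched no peptide in either run. BDAI-1 was found in embryo extract beside B1 hordein and beta-amylase. Ratios within a run give no amount, so how much of each tissue's protein was present was not tested.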

How the data were processed

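The measurements are heavy/light ratios of cysteine peptides in 2 samples, 1 blocked and 1 control. Per the labels, tagged tryptic peptides were captured on avidin and run on a nanoflow chromatograph coupled to a QSTAR tandem mass spectrometer. Per the series description, spectra were turned into peak lists by Analyst QS 2.0 and its Mascot script (1.6b20) and searched against Swiss-Prot 54.6, a public non-redundant collection and the barley gene index HvGI 9.0. MSQuant 1.4.3a12 gave the ratios, and matches with a Mascot score of 20 or more were kept. The deposited ratio is the authors' average and the deposited SD is in the same unit. The deposited score is the Mascot score. Whether ratios were centred is not stated. Charge and mass columns were used as deposited.

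Ratios were taken to log2 in Python 3.11.15 with pandas 2.3.3, and peptide masses came from pyteomics 5.0.1. Every set peptide is named. For other lists the highest and lowest are named, besides the amylases and peptidases, given in full because they are few. SD ranges (ratio ± SD) were compared only where both SDs were above 0. The members and lists were chosen with earlier results of these data known. None of the 5 identifiers of the set matched the RefSeq gene table, so no locus is given.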

Additional observations from a re-analysis of the deposited data

How the results depend on the processing

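The count of 5 of 8 peptides above the limit was the same with limits from a scaled median absolute deviation and with limits at 3 SD. It was also the same above the highest control peptide, with a fixed ratio of 1.5 and with limits on the linear scale. The single control peptide stayed inside each, but all limits except the fixed ratio were set from the run that holds it. By definition it could not lie above the highest control peptide. Over all 199 peptides, the 101 above (50.8%) became 106 (53.3%), 83 (41.7%), 77 (38.7%), 65 (32.7%) and 104 (52.3%) in the same order. At the fixed ratio of 1.5, the members' count rests on peptides barely above it. These are IBB_HORVU at 1.503, with an unknown SD, and the 9-residue Barperm1 peptide at 1.508 ± 0.36. Fewer members entered under other choices. With a score of at least 40, 1 of 3 lay above (55 of 106 over the run), and with 1 cysteine only 2 of 5 (95 of 186). By Bowman-Birk names alone 3 of 4 did, against 101 of 199 over the run. With 1 value per entry, TC140585 averaged 1.56 and lay above, while Barperm1 averaged 1.22 and fell inside. BDAI-1 and IBB_HORVU have 1 peptide each, so their values did not change. No share over all entries of the run is given for that last choice, so no count by entry is read from it. The members' median log2 ratio of 0.59 became 0.25 with a score of at least 40 and 0.25 with 1 cysteine only. Limits were set anew from the control peptides that met each choice, and a count was taken as moved when it changed by over 1.5 times, a median, span or difference when it shifted by more than the SD carried over from the authors' SDs. Of the recomputed values 8 moved and 28 did not, but this tally does not measure stability. Some that did not move rest on the same peptides as before, such as the control count and, with SDs above 0, the TC140585 span. Some counts moved because fewer peptides entered. With a score of at least 40, the share over the run was 51.9%, against 50.8%. The Barperm1 span of 0.59, with a wide SD, became 0.34 with a score of at least 40 and 0.24 with 1 cysteine only. With a score of at least 40 no value could be had for the Barperm1 difference between runs, the control count or the TC140585 span, and with 1 cysteine none for that span. Chosen after seeing the data, a match of the letters thionin inside longer words (methionine) gave 10 of 12 in place of 9 of 11 seed proteins. No paired analysis was possible because each group holds 1 sample. With 1 sample a group and an unknown number of ratios behind each average, precision rests on the authors' SDs.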
